A study of Arabidopsis thaliana with 6 samples.

Results

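The 9 genes described here form the carbon dioxide signalling route of guard cells, the paired cells that open and close the stomatal pore. They were chosen by their known role, by name and locus, and the rule sets no threshold on a measured value, although earlier results of these data were known when it was written: the carbonic anhydrases *CA1* (AT3G01500), *CA2* (AT5G14740) and *CA4* (AT1G70410), the transporter *RHC1* (AT4G22790), and the protein kinases *HT1* (AT1G62400), *MPK4* (AT4G01370), *MPK12* (AT2G46070), *CBC1* (AT3G01490) and *CBC2* (AT5G50000). They are 9 of the 25410 genes that could be matched to a probe of the array, and 20 probes report on them. RNA came from guard cell protoplasts (GCPs), which are guard cells freed of their walls by enzymes, of *Arabidopsis thaliana* rosette leaves.

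SL plants had spent 3 weeks under short days and then 2 weeks under long days of 16 h light at 41 µmol m-2 s-1. SS plants had spent 5 weeks under short days of 8 h light at 100 µmol m-2 s-1. Every plant of both groups was of the Columbia background and homozygous for the recessive *gl1* allele, which removes leaf hairs. Each group had 3 arrays, numbered 1 to 3, and the series was described as 3 experiments, each on its own batch of plants. The numbers are read here as these batches, and replicate 1 also differs from the others in its slide. The longer day thus came with dimmer light. The labels place the isolation of SL GCPs at ZT16 (hours after lights on) and of SS GCPs at ZT8, whereas the methods give ZT16 for both. Day length, light intensity and any difference in isolation time cannot be told apart in these data.

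Carbonic anhydrases turn carbon dioxide that enters the guard cell into bicarbonate. At low carbon dioxide the kinase HT1 keeps stomata open, and it acts with the Raf-like kinases CBC1 and CBC2, which hold back the anion channels of closure. At high carbon dioxide the MAP kinases MPK4 and MPK12 inhibit HT1, the brake on the anion channels is lifted and the pore closes.

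Between 28468 and 30826 probes per array (65.3% to 70.7% of 43603) were well above background, fewest in SL replicate 2 and most in SS replicate 1, and no probe was saturated. Before normalization the 75th percentile of intensity was 521 in SL replicate 2, against 944 in SS replicate 2, so that the arrays of this pair differed most in overall brightness. Replicate 1 of both groups lay on one slide and replicates 2 and 3 on another. All 20 probes of the 9 genes were well above background on all 6 arrays. Signals below are normalized, linear and in arbitrary units, and they are compared between arrays for one probe, never between probes. SDs are over the 3 arrays of a group.

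In the fit of SL against SS without regard to the replicate numbers, none of the 20 probes was called at an adjusted p under 0.05 (limma, adjusted p = 1.00 for each), and 0% of the 28852 probes tested over the array were called either. At an unadjusted p under 0.05, this fit held 1 of the 20 probes, against 4.11% of all probes tested. None of the 9 genes had SL arrays that lay wholly above or below the SS arrays at its brightest probe, and none of the 20 probes did. Over all probes tested, 8.77% did (4.02% with SL above and 4.74% with SL below). At that share, few or none of 9 genes would do so. With the replicate number as a block, which compares SL with SS within each plant batch, limma called 3 of the 20 probes, 1 higher and 2 lower in SL, beside 4.5% of all probes tested (1.34% higher and 3.15% lower). At an unadjusted p under 0.05, the fit with the block held 10 of the 20 probes, beside 24.1% of all probes tested. Only 5 of the 9 genes have a single probe, and several of these 10 probes report on *CA1*. Probes of one gene measure it repeatedly, so the 2 shares cannot be compared as a rate among genes. The 3 called probes are 1 each of *CA1* (higher), *CA2* (lower) and *CBC1* (lower).

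At the brightest probe of each gene, *CA1*, *MPK4* and *RHC1* were higher in SL in all 3 pairs of same-numbered arrays, and *CBC1*, *CBC2* and *MPK12* were lower in SL in all 3. Before normalization SL replicate 2 was below SS replicate 2 in all 3 of the higher genes (5207 against 8788 for *MPK4* and 2036 against 3575 for *RHC1*, and likewise for *CA1*), so their direction in this pair rests on the adjustment for overall brightness. For *MPK4* the same holds in the pair of replicate 1, at 3438 in SL against 3487 in SS. Over all probes tested, 23.1% were higher and 23.6% lower in every pair (46.7% in all), so that a shared direction by itself is frequent on these arrays. The median log2 difference of the 9 genes, SL minus SS, was -0.09, beside 0.01 over all probes tested.

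**Figure D1:**
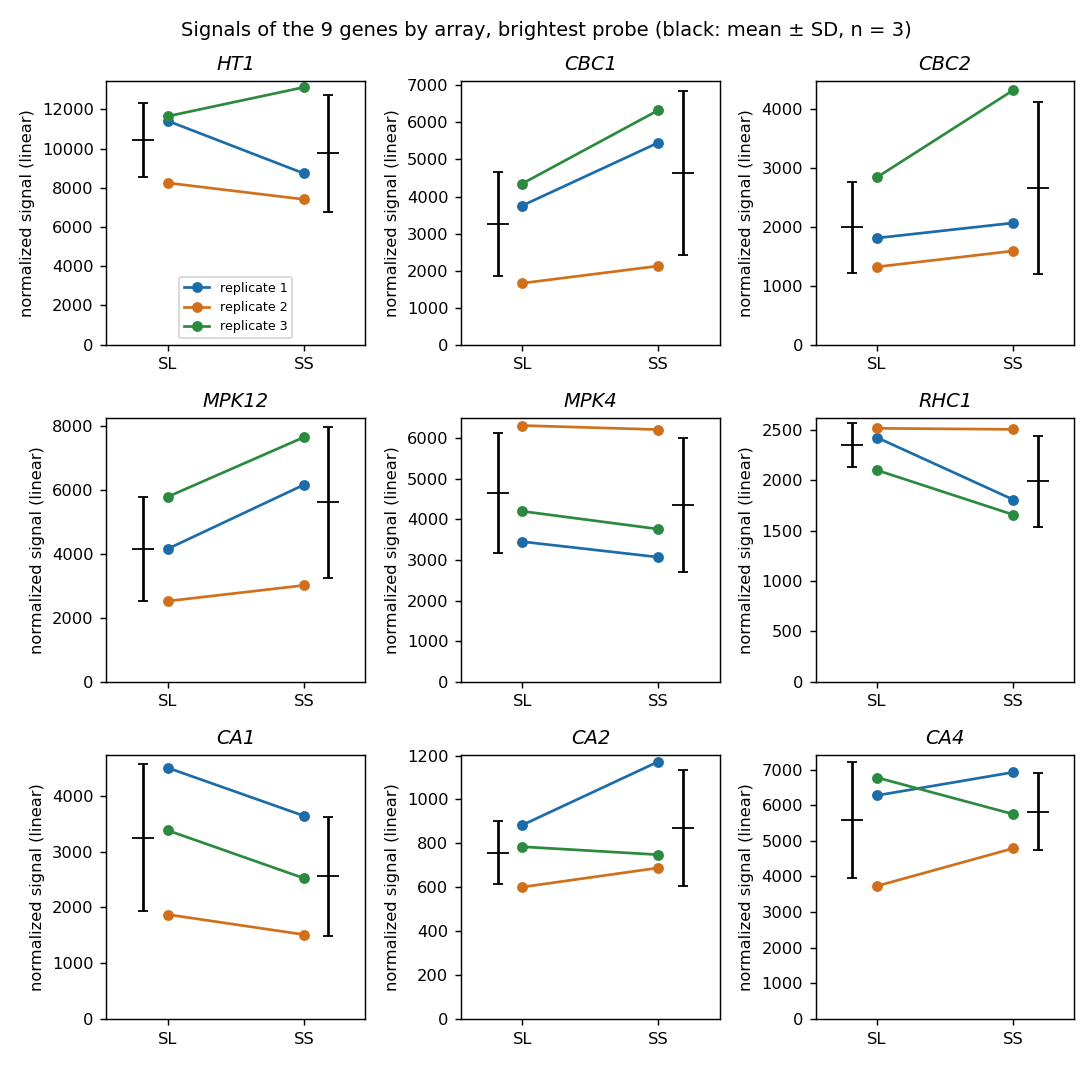
Normalized signal of the brightest probe of each of the 9 genes in the 3 SL and the 3 SS arrays (arbitrary units, linear axis from 0), with coloured lines that join same-numbered arrays and black bars for the mean ± SD of each group. In every gene the SL and SS values overlap, while the lines of *CBC1*, *CBC2* and *MPK12* run one way and those of *CA1* the other.

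*CA1* encodes a carbonic anhydrase of the chloroplast, and it is abundant in mesophyll cells as well as in guard cells. Its brightest probe (A_84_P863231) read 4504, 1872 and 3381 in SL replicates 1 to 3 and 3642, 1512 and 2523 in SS replicates 1 to 3. Both groups were lowest in replicate 2 and highest in replicate 1, and they overlapped, although each SL array stood above the SS array of its own number. The means were 3252 ± 1321 in SL and 2559 ± 1065 in SS (SD, n = 3 each). The SL/SS ratio was 1.24, 1.24 and 1.34 in the 3 pairs, with a mean of 1.27 ± 0.0594 (SD, n = 3 pairs). This corresponds to a log2 difference of 0.35 with an SE of 0.42 in limma without the block (95% interval -0.66 to 1.35), and within batches the interval was 0.15 to 0.54 (limma with the replicate block, adjusted p = 0.0724). Before normalization the brightest probe read 1476 in SL replicate 2 and 2122 in SS replicate 2, so the direction in this pair came from the adjustment for overall brightness.

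All 8 probes of *CA1* had a positive mean difference, and 5 of them were higher in SL in every pair. The probe called with the block was A_84_P809506, with 1011, 687 and 1029 in SL and 714, 536 and 717 in SS. Its SL replicate 2 lay below SS replicates 1 and 3, so the groups overlapped, and the other 2 SL arrays stood above all SS arrays. The SL/SS ratio averaged 1.38 ± 0.0838, and the log2 difference was 0.46 with an SE of 0.084 (limma with the replicate block, adjusted p = 0.0419). It was called in 2 of 7 fits with the block, with adjusted p up to 0.190, and was lost with both scalings to the 75th percentile and with any pair left out. Before normalization SL replicate 2 was below SS replicate 2 here too, at 510.5 against 704. The other 7 probes had log2 differences between 0.15 and 0.42 under the main normalization. From the deposited matrix the dim probes A_84_P809517 and A_84_P856078 were at 0.57 and 0.36, against 0.57 at A_84_P809506. In the pair of replicate 2, the probes A_84_P809499, A_84_P856078 and A_84_P809517 were lower in SL.

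*CA2*, which encodes a carbonic anhydrase of the cytosol, is reported by 3 probes that differed in size of difference. The brightest (A_84_P810020) read 883, 601 and 785 in SL and 1173, 688 and 748 in SS. Replicates 1 and 2 were lower in SL and replicate 3 was not, and the log2 difference was -0.18 with an SE of 0.25 (95% interval -0.78 to 0.42 in limma without the block; adjusted p = 0.379 with the block).

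A second *CA2* probe, A_84_P18848, had the largest difference of the 20 probes under the main normalization, with 459, 231 and 260 in SL and 1391, 616 and 431 in SS. SL was lower in each pair, and the groups overlapped only because SL replicate 1 stood just above SS replicate 3. The SL/SS ratio was 0.33, 0.375 and 0.605, and the log2 difference was -1.25 with an SE of 0.47 without the block (95% interval -2.37 to -0.13) and 0.17 with it (limma with the replicate block, adjusted p = 0.0231). The exact permutation tests gave two-sided p = 0.2 over the arrays and p = 0.25 over the pairs, where the smallest values possible are 0.1 and 0.25. The third probe, A_84_P810038, read 146, 111 and 107 in SL and 298, 193 and 124 in SS, with a log2 difference of -0.68 (adjusted p = 0.0689 in limma with the replicate block). Its difference depended on the background correction, at -1.05 with a normexp offset of 0, -1.59 from the deposited matrix and -1.64 from processed intensity scaled to the 75th percentile, and in the last 2 it exceeded that of A_84_P18848 (-1.51 and -1.54). It was called in 2 of 7 fits with the block, among them that on processed intensity (limma, adjusted p = 0.0447), and A_84_P18848 in 4 of 7. The array's annotation gives A_84_P18848 and the brightest probe the same transcript record and A_84_P810038 another, so the difference between the first 2 does not follow the transcript named for them.

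*CA4* encodes a carbonic anhydrase at the plasma membrane. Its brightest probe (A_84_P16252) read 6274, 3731 and 6776 in SL and 6925, 4787 and 5749 in SS. SL was lower in replicates 1 and 2 and higher in replicate 3, and both means lay close together, at 5594 ± 1632 in SL and 5820 ± 1070 in SS (SD, n = 3 each). The log2 difference was -0.09 with a 95% interval of -0.72 to 0.55 in limma without the block. At the other probe (A_84_P813971), the pairs also split, with SL/SS ratios of 0.82, 0.71 and 1.51 and a log2 difference of -0.06. *CA4* had no direction that the pairs shared at either probe.

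*RHC1* encodes a transporter of the MATE family that has been placed between bicarbonate and HT1. It read 2422, 2513 and 2098 in SL and 1806, 2503 and 1657 in SS. Replicates 1 and 3 were higher in SL, replicate 2 was nearly equal, and SL replicates 1 and 3 lay below SS replicate 2. The SL/SS ratio averaged 1.20 ± 0.177, and the log2 difference was 0.26 with a 95% interval of -0.20 to 0.71 in limma without the block (adjusted p = 0.214 with the block).

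*HT1*, the kinase on which the route converges, read 11416, 8249 and 11649 in SL and 8735, 7412 and 13128 in SS. SL was higher in replicates 1 and 2 and lower in replicate 3, and the SS arrays spanned the SL arrays on both sides. Before normalization replicate 2 read 6794.5 in SL and 10477 in SS, and replicate 3 read 11262 in SL and 10178.5 in SS. The direction in these pairs thus came from the adjustment for overall brightness. The means were 10438 ± 1899 in SL and 9758 ± 2992 in SS (SD, n = 3 each). The log2 difference was 0.12 with a 95% interval of -0.48 to 0.73 without the block and -0.17 to 0.42 with it (limma, adjusted p = 0.577 with the block).

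The MAP kinases that act on HT1 had mean differences of opposite sign, neither of them called. *MPK12*, which is preferentially expressed in guard cells, read 4155, 2523 and 5783 in SL and 6158, 3015 and 7647 in SS. SL was lower in each pair, the groups overlapped through the low SS replicate 2, and the SL/SS ratios were 0.675, 0.837 and 0.756. The log2 difference was -0.41 with an SE of 0.43 (95% interval -1.44 to 0.62 in limma without the block), and the interval within batches was -0.64 to -0.18 (adjusted p = 0.0678 with the block).

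*MPK4*, which acts in many tissues and also in defence, read 3453, 6317 and 4203 in SL and 3072, 6216 and 3763 in SS at its brightest probe (A_84_P24174). The groups lay over each other, with replicate 2 highest in both, and the log2 difference was 0.12 with a 95% interval of -0.66 to 0.90 in limma without the block. Its other probe (A_84_P817238) had SL/SS ratios of 1.14, 0.88 and 1.18, so that replicate 2 ran the other way there.

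*CBC1* was the one gene of the 9 called at its brightest probe, and only with the block. It read 3754, 1659 and 4348 in SL and 5457, 2124 and 6332 in SS. Each SL array was below the SS array of its number, and the groups overlapped only through SS replicate 2, which lay below SL replicates 1 and 3. The means were 3254 ± 1412 in SL and 4638 ± 2220 in SS (SD, n = 3 each), with SL/SS ratios of 0.688, 0.781 and 0.687. The log2 difference was -0.48 with an SE of 0.52 without the block (95% interval -1.73 to 0.77) and 0.086 with it (limma with the replicate block, adjusted p = 0.041). Of 7 fits with the block that differed in normalization or left out a replicate, 3 called *CBC1*, with adjusted p between 0.041 and 0.198.

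*CBC2*, its close relative, read 1811, 1322 and 2843 in SL and 2067, 1591 and 4322 in SS. SL was again lower in each pair, and the groups overlapped, with SS replicate 3 standing above all other arrays. The log2 difference was -0.35 with a 95% interval of -1.39 to 0.68 in limma without the block (adjusted p = 0.121 with the block). The SL/SS ratios of *CBC2* were 0.876, 0.83 and 0.658.

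**Figure D2:**
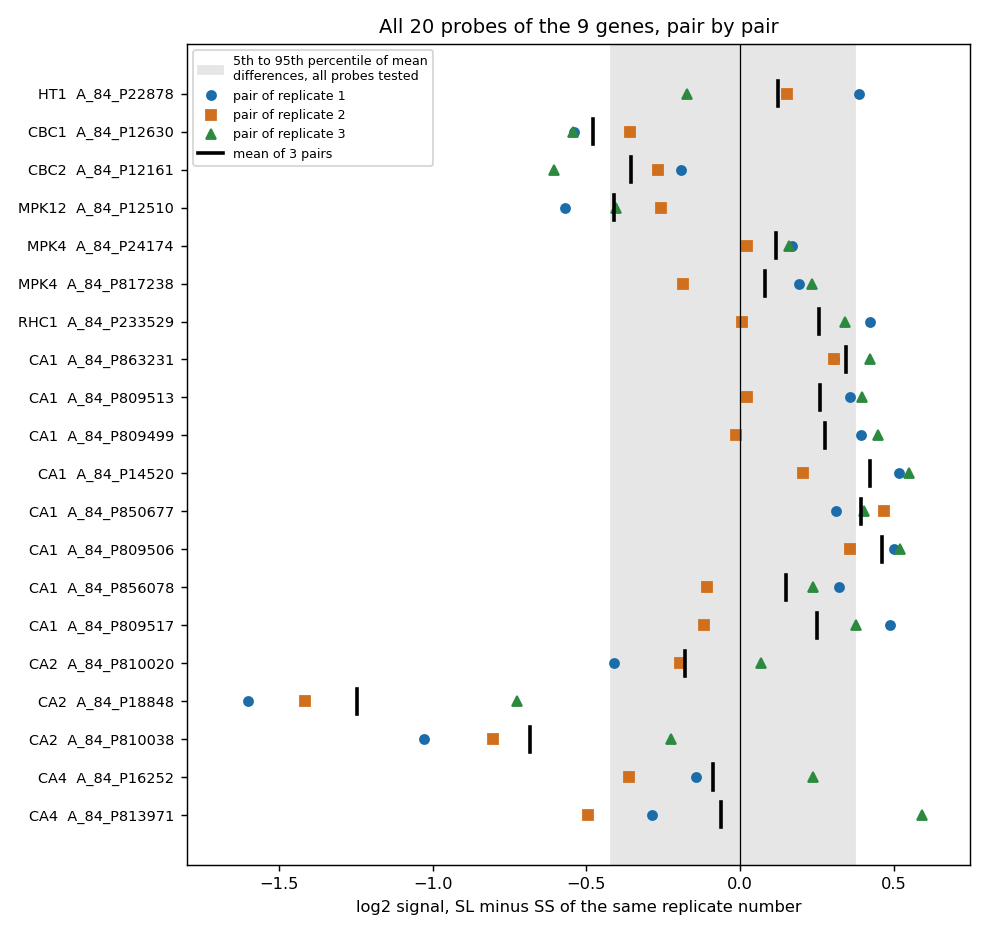
Log2 signal in SL minus SS for each same-numbered pair (symbols) and the mean of the 3 pairs (black bars) at all 20 probes, over the 5th to 95th percentile of the mean difference among all probes tested (grey, -0.42 to 0.37). *CBC1* and 2 of the 3 *CA2* probes have means below the grey range and 3 *CA1* probes have means above it.

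The signal of these genes varied between replicates, which differ in plant batch and, for replicate 1, also in slide. For each gene, the mean of the SL and SS arrays of a replicate was taken. The range of the 3 replicate means exceeded the size of the SL minus SS difference in 9 of the 9 genes, as in 86.9% of all probes tested. A range of 3 means tends to be larger than a single mean difference, so these sizes do not rank replicate against day length. The range was 1.48 on the log2 scale for *CBC1*, 1.27 for each of *CA1*, *CBC2* and *MPK12*, 0.94 for *MPK4* and 0.66 for *HT1*. Replicate 2 was the lowest replicate in 7 of the genes (*HT1*, *CA1*, *CA2*, *CA4*, *CBC1*, *CBC2* and *MPK12*) and the highest in the other 2, *MPK4* and *RHC1*.

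**Figure D3:**
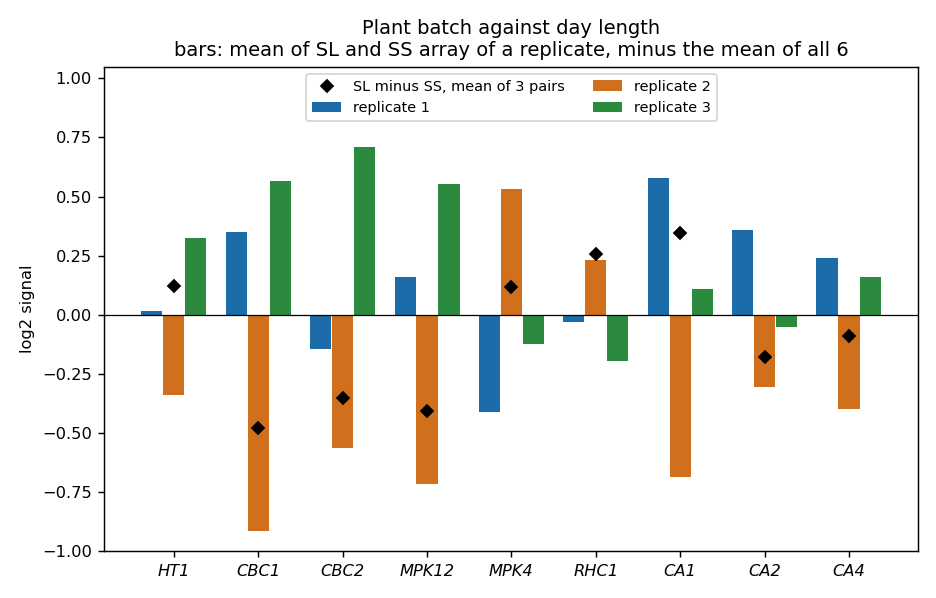
Log2 signal of each replicate (mean of its SL and SS array, minus the mean of all 6 arrays; bars) and the mean SL minus SS difference (diamonds) for the brightest probe of each gene. The orange bars of replicate 2 point down in 7 genes and up in *MPK4* and *RHC1*, and no diamond is as large as the spread of the bars of its gene.

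After the group means were taken off, *CBC1* and *MPK12* followed each other over the 6 arrays (Pearson's r = 0.982), as did *HT1* and *CBC2* (r = 0.946) and *CA1* and *CA2* (r = 0.919). *MPK4* ran against *CA1* (r = -0.990), and *RHC1* ran against *MPK12* (r = -0.931). These are the extremes among all pairs of these genes, and other pairs were as weak as r = 0.12 (*CA2* and *CBC2*). The values describe 6 arrays from 3 plant batches, and same-numbered arrays share a batch, so strong values of either sign come easily. They were not compared with those of other gene pairs. Over the 6 arrays, the genes whose log2 signal was most like that of *HT1* among 18000 compared were *NAC014* (AT1G33060), AT5G41140 and *PIN3* (AT1G70940), each with r = 0.998, and 95 genes had r over 0.95. For *CA1* they were *GAI* (AT1G14920, r = 0.995), AT1G49980 (r = 0.992) and *TIM50* (AT1G55900, r = 0.992), and 120 genes had r over 0.95.

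A further 23 genes were listed around the route, as other carbonic anhydrases, partners and outputs, or MAP kinase relatives and cascade members. Of these 22 were measured, none was called without the block, and 1 was called with it, beside 4.5% of all probes tested. The median log2 difference of the 22 was -0.06. The 4 other carbonic anhydrases (*CA3*, *CA5*, *CA6* and *ACA1*) had a median of -0.15, and none was called. The 7 MAP kinase relatives and members of the MPK4 cascade lay between -0.08 and 0.20, and none was called. Among 11 measured partners and outputs the range was -0.58 to 0.33, with a median of -0.22.

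The gene called with the block was *PHOT2*, a blue light receptor of guard cells. Its brightest probe read 1013, 754 and 1031 in SL and 1410, 1078 and 1715 in SS. The groups did not overlap, and the log2 difference was -0.58 (limma with the replicate block, adjusted p = 0.0308; 1.00 without it). The 2 dimmer probes of *PHOT2* were not called with the block (adjusted p = 0.561 and 0.258). *SLAC1*, the anion channel at the end of the route, read 1423, 4400 and 3460 in SL and 1931, 3425 and 3238 in SS. Its pairs split and the log2 difference was 0.01 with an SE of 0.45. *OST1*, the kinase that activates SLAC1, read 194, 374 and 357 in SL and 227, 351 and 508 in SS, with a log2 difference of -0.22 (limma with the replicate block, adjusted p = 0.353).

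Markers of guard cells were present, and both they and the markers of mesophyll leaned lower in SL, those of mesophyll more. Of 10 guard cell markers, 9 were well above background on all 6 arrays, and 1 was called lower in SL with the block. This was *TGG2*, a myrosinase, which was well above background on only 5 arrays and read 87.3 in SL replicate 2. The summed signal of the 10 was 86059 to 119907 in SL and 88081 to 149284 in SS. Most of each sum came from *TGG1*, at 55061 to 73921 in SL and 57069 to 91763 in SS. The median log2 difference of the 10 was -0.15. Of them 5 were lower in SL in all 3 pairs and none higher, beside 23.6% and 23.1% of all probes tested. Of 12 mesophyll markers, 12 were well above background on all 6 arrays, with a summed signal of 35767 to 62652 in SL and 72686 to 129430 in SS. With the block 10 of them were called lower in SL and none higher, beside 3.15% and 1.34% of all probes tested. Their median log2 difference was -0.81. The exception in direction was *GLDP1*, a glycine decarboxylase, with a log2 difference of 0.25, all SL arrays above all SS arrays at its brightest probe and no call (limma with the replicate block, adjusted p = 0.213). At their brightest probes, *CA1*, *HT1*, *MPK4* and *RHC1* had the opposite sign to the other 11 mesophyll markers. *CA2*, *CA4*, *CBC1*, *CBC2* and *MPK12* had the same sign as those 11 and as most of the guard cell markers. The 3 epidermis markers (median -0.29) and 2 phloem markers (median -0.10) were not called. The part of other cells in the differences of the 9 genes was not tested, and in RNA from many cells fewer cells of a type and less RNA per cell cannot be told apart.

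**Figure D4:**
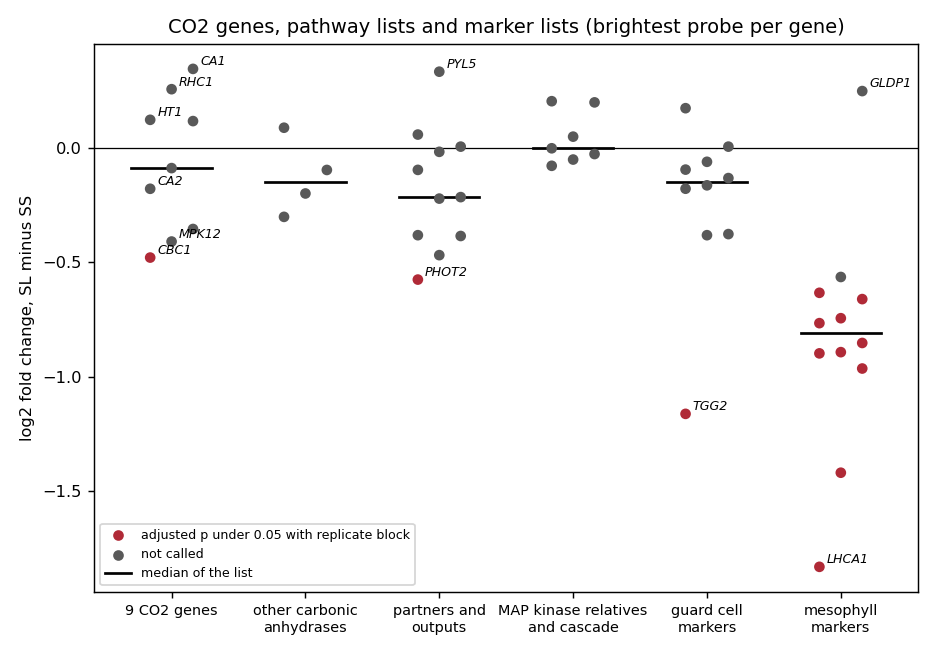
Log2 difference, SL minus SS, at the brightest probe of each gene of the pathway and marker lists (1 point a gene, red where called by limma with the replicate block, with black bars for medians), beside the 9 carbon dioxide signalling genes. The 12 mesophyll markers have the lowest median, -0.81, whereas the 9 genes have a median of -0.09.

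In a RefSeq gene table, *CA1* and *CBC1* are neighbours on chromosome 3. The bounds of *CA1* overlap those of AT3G01510, those of *CBC1* overlap AT3G01480, and those of *MPK4* overlap AT4G01380 and AT4G01390, whereas the other 6 genes overlap none.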

How the data were processed

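The authors hybridized RNA of 3 SL and 3 SS GCP samples to single-colour Agilent arrays and extracted them with Feature Extraction 11.5.1.1. Per spot, the deposited files give intensity as the median over pixels, that of the local background and a background-subtracted processed intensity, none normalized between arrays, and the deposited series matrix repeats the processed intensity. Flags in the deposited files mark outlier, saturated and dim spots.

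Intensities were background-corrected by normexp (offset 50), quantile normalized over 6 arrays and put on the log2 scale (R 4.3.3, limma 3.58.1). Of 43603 probes, 28852 entered the tests, each well above background throughout SL or throughout SS. A RefSeq table gave a gene for 34348 probes (78.8%). The array files name another assembly than that table, so no coordinates are given. SL was set against SS with limma, and p-values were adjusted by Benjamini-Hochberg over these 28852 probes. Intervals are 95%. With 3 arrays a group, the number of arrays limits the precision.

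The replicate numbers pair the samples. The design text gives each experiment its own plant batch. Once group means were removed, same-numbered SL and SS arrays had r = 0.71, 0.855 and 0.739 over probes, and differently numbered ones -0.58 to -0.161. Removing group means makes the latter negative on average wherever the former are positive, so they add no separate evidence of pairing.

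All members and every probe of them are named. The members and the lists were chosen with earlier results of these data known. The scripts were tested on simulated data. Alternatives were other background corrections, normalizations and filters, a block for replicate or for slide, the t-test named in the methods, and leaving out arrays.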

Additional observations from a re-analysis of the deposited data

How the results depend on the processing

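Without the replicate block, every setting run called 0 probes over the array. The fit with the replicate block called 1297 (910 lower in SL), or 935 (712 lower) from processed intensity scaled at the 75th percentile, 47 (37 lower) from normexp scaled in that way, and 1091 (776 lower) after quantile normalization by slide. With 1 replicate pair left out, this fit called between 0 and 2345 probes, and 52 without replicate 1. Of the 20 carbon dioxide signalling probes, the block called 3, or 2 from processed intensity, 0 from normexp scaled at the 75th percentile, 3 with normalization by slide and 0 to 3 with a pair left out. Of the other genes listed around the route it called 1 (*PHOT2*), 1 by slide, 0 from processed intensity, 0 from normexp scaled at the 75th percentile, and 0 to 2 with a pair left out (*ALMT12* and *PHOT2* without replicate 3). Without SS replicate 2 or pair 2, groups did not overlap in 3 genes (*CBC1*, *MPK12*, *RHC1*), else in 0. This is easier with fewer arrays and was not counted for all probes. The median of the 9 genes was 0.021 from processed intensity and between -0.23 (pair 3 omitted) and 0.047 (pair 2 omitted) where arrays were left out.

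Across alternatives, 410 single-probe values kept their direction and side of the threshold, 11 passed it, each with the block, and 19 changed sign. *CA4* turned to 0.021 at A_84_P16252 from processed intensity, with or without the block, and to 0.047 with the block and no replicate 2. At A_84_P813971 it turned to 0.049 with the block and no replicate 1 and to 0.15 with no replicate 2. *HT1* turned to -0.0090 with the block and no replicate 1. The other changes of sign came from leaving out 1 array. These ranges were -0.25 (no SL replicate 3) to 0.18 (no SL replicate 2) for *CA4* at A_84_P16252, -0.27 (no SS replicate 3) to 0.12 (no SL replicate 2) at A_84_P813971, -0.066 (no SL replicate 1) to 0.60 (no SL replicate 2) for *CA1* at A_84_P809513, and -0.020 to 0.60 at A_84_P809499 under the same omissions. *MPK4* ranged from -0.13 (no SL replicate 2) to 0.41 (no SS replicate 2) at its brighter probe and from -0.22 (no SS replicate 3) to 0.41 (no SS replicate 2) at the dimmer. *CA2* at its brightest probe ranged from -0.33 (no SS replicate 2) to 0.057 (no SS replicate 1), *HT1* from -0.054 (no SS replicate 2) to 0.36 (no SS replicate 3) and *CBC2* from -0.66 (no SS replicate 2) to 0.063 (no SS replicate 3). The cause was not tested.

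No change of sign occurred for *CBC1*, which ranged from -0.97 (no SS replicate 2) to -0.051 (no SL replicate 2), for *CA1* at its brightest probe, from 0.011 (no SS replicate 2) to 0.70 (no SL replicate 2), for *CA1* at A_84_P809506, from 0.32 (no SS replicate 2) to 0.65 (no SL replicate 2), for *MPK12*, from -0.80 (no SS replicate 2) to -0.090 (no SL replicate 2), for *RHC1*, from 0.14 (no SS replicate 3) to 0.43 (no SS replicate 2), for *CA2* at A_84_P810038, from -1.0 (no SS replicate 3) to -0.37 (no SS replicate 1), or at A_84_P18848, from -1.62 (no SS replicate 3) to -0.77 (no SS replicate 1). A background correction of mean pixel intensity was not run. No scaling moved the median of all probes by over 0.1.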
